A study of Homo sapiens with 8 samples.

Results

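The motile cilium structure and assembly genes are a fixed list of 47 symbols, of which 38 have a row among the 22808 gene symbols of the count table and are described here whatever their counts. The other 9, DNAI1, DNAI2, DNAH3, DNAH11, DNAH12, CCDC39, HYDIN, SPAG6 and TEKT1, have no row in that table, in which the smallest total of a gene is 2 counts. Human RD18 cells, a fusion-negative rhabdomyosarcoma line, were transfected with miR-449a and miR-340-5p together (the treated group, 4 libraries) or received the transfection reagent lipofectamine alone (the vehicle group, 4 libraries). All cells were taken 60 h later for bulk sequencing of polyadenylated RNA. The vehicle cells received no control RNA, so the microRNA pair and the presence of transfected RNA cannot be told apart. RD18 is 1 cell line and nothing in the labels says that the libraries of a group came from separate cultures, so the SD values and tests cover only the spread between these libraries, which may be technical. Library totals ran from 2842165 to 5569342 counts in the treated group and from 2567737 to 4650213 in the vehicle group. The list was chosen on measured values, the counts of these genes in the same treated and vehicle libraries, so their differences are given below as a description.

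A motile cilium is a beating hair built on an axoneme, a ring of doublet microtubules around a central pair. Outer and inner dynein arms on the doublets make the doublets slide, radial spokes and the nexin-dynein regulatory complex turn sliding into bending, and dynein arms are assembled in the cytoplasm by dedicated factors before they enter the cilium. In multiciliated epithelia such as the airway lining, FOXJ1 and RFX transcription factors switch these genes on, and the miR-34/449 family acts upstream of cilium formation. Skeletal muscle cells and tumours of that lineage are not known for motile cilia.

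The transfected microRNAs are shown because miR-449a belongs to that family. Mature sequences are from RefSeq (GRCh38.p14), and capitals mark the seed, bases 2 to 8.
hsa-miR-449a: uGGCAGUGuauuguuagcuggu
hsa-miR-34a-5p: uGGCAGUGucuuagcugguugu
hsa-miR-340-5p: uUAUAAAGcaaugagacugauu
The seed of miR-449a is the same as that of miR-34a-5p, which was not transfected and is printed for comparison, and the seed of miR-340-5p differs from both.

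Treated cells held more RNA of most motile cilium genes, including many that were nearly silent in vehicle cells, but the gain was uneven across the parts of the axoneme. WDR63, CFAP57, DNAAF1 and CCDC113 had 149 to 463 counts over all treated libraries and 3 to 12 over all vehicle libraries. The outer dynein arm motor genes DNAH5 and DNAH9 together had 39 counts in treated and 8 in vehicle libraries, and FOXJ1 had 12 and 2. The heavy chain gene DNAH14 did not pass the test, and MNS1, SPAG17 and DNAAF3 were lower. All 38 genes together took 494, 496, 513 and 496 CPM (counts scaled to a common effective library size) in the treated libraries, against 302, 283, 277 and 281 CPM in the vehicle libraries. The summed level was 1.75 times higher in treated cells (500 ± 9.04 CPM against 286 ± 11.2 CPM, SD, n = 4 each). DNAH14 had the most counts of all members, and without it the ratio was 1.94. In bulk RNA, more cells that express a gene and more RNA per cell cannot be told apart.

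Of the 38 genes, 22 passed edgeR's count minimum (about 2.43 CPM in 4 libraries) and 16 did not. A gene that passed only through the treated libraries, such as WDR63, CFAP57, DNAAF1, CCDC113 or CCDC65, was bound to differ. The following counts therefore describe the list and support nothing about it. Among the 22 tested, 17 were called higher, 3 lower and 2 were not called (edgeR quasi-likelihood test, Benjamini-Hochberg adjusted p under 0.05 over 12366 genes), with a median log2 fold change of 1.52. Over all tested genes 33.4% were called higher and 34.0% lower, with a median of -0.00067. Counting all 38 genes, every treated library lay above every vehicle library in 24, every treated library lay below in 2, and the groups overlapped in 12. Of all genes with a row, 18.2% lay above and 17.8% below in that way. In members with few counts, such as DRC1, RSPH1 and ZMYND10, the order of the closest libraries rests on their size.

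**Figure D1:**
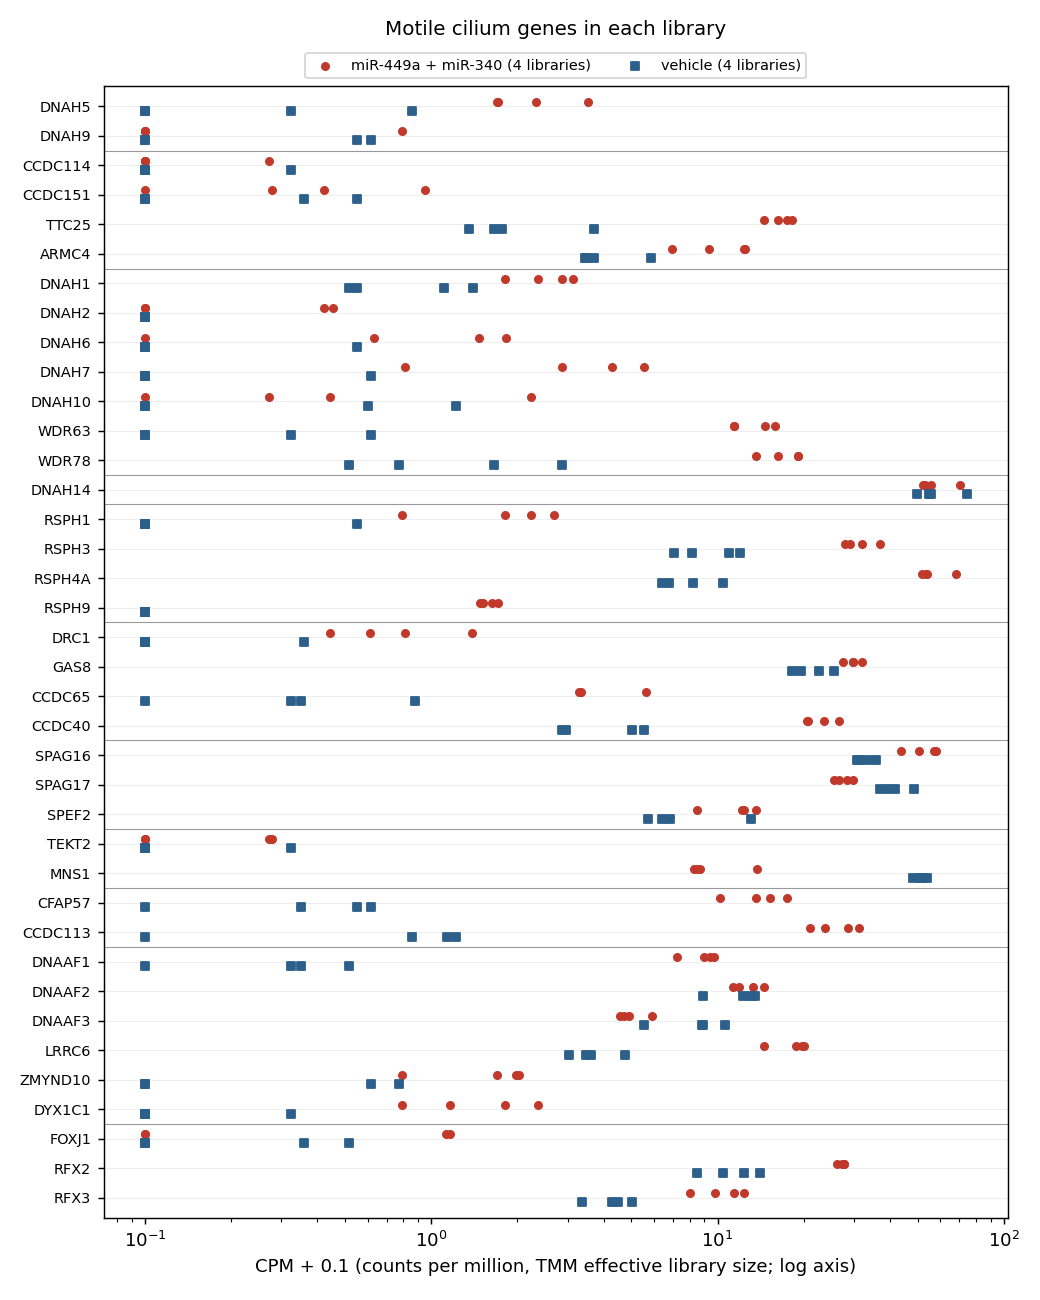
Level of each of the 38 genes in each library, as CPM + 0.1 on a log axis, with treated libraries as red circles and vehicle libraries as blue squares; several libraries with no count share the point at the left edge. Grey lines part the roles, in the order outer arm motor, outer arm docking, inner arm, DNAH14, radial spokes, regulatory complex and ruler, central pair, tektins and doublet lumen, other axonemal, preassembly and transcription factors. In 24 genes all 4 treated libraries lie to the right of all 4 vehicle libraries, and in SPAG17 and MNS1 they lie to the left.

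The transcription factors come first, since such factors switch motile cilium genes on in multiciliated epithelia. Their action on the members in these cells was not tested. RFX2 and RFX3 are X-box binding factors of ciliated cells. RFX2 (chromosome 19, GRCh38) measured 26.1, 27.5, 27.5 and 27.0 CPM in treated libraries, against 8.37, 14.0, 10.3 and 12.3 CPM in vehicle libraries. RFX3 (chromosome 9) measured 11.4, 9.72, 7.92 and 12.2 CPM in treated libraries, against 4.18, 4.40, 4.94 and 3.27 CPM in vehicle libraries. Neither gene overlapped between groups, and the changes were of like size, with log2 fold changes of 1.23 (SE 0.16) for RFX2 and 1.29 (SE 0.25) for RFX3. FOXJ1, the master regulator of motile cilia, had 6, 6, 0 and 0 counts in the treated libraries and 1, 1, 0 and 0 in the vehicle libraries. Its treated counts came from 2 libraries, the groups overlapped, and the ratio of 5.03 has an exact 95% interval from 1.12 to 46.3. Intervals of count ratios here cover counting error only, and reads are not independent molecules.

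The outer dynein arm motor was the role with the fewest counts, 39 in treated and 8 in vehicle libraries. Of its 5 motor genes, the intermediate chain genes DNAI1 and DNAI2 and the heavy chain gene DNAH11 have no row. DNAH5, the gamma heavy chain, had 9, 13, 10 and 5 counts in treated libraries and 0, 0, 1 and 3 in vehicle libraries, a ratio of 7.76 (2.79 to 30.0). DNAH9, the beta heavy chain, had 2 counts in treated and 4 in vehicle libraries. The genes of the docking complex, which fixes the outer arm to the doublet, were split. TTC25 measured 14.4, 18.1, 16.2 and 17.4 CPM in treated libraries, against 1.67, 1.55, 3.59 and 1.26 CPM in vehicle libraries, a log2 fold change of 2.95 (SE 0.27). ARMC4, which is also needed for docking, measured 9.23, 6.82, 12.4 and 12.2 CPM in treated libraries, against 3.35, 3.37, 3.59 and 5.78 CPM in vehicle libraries, a log2 fold change of 1.26 (SE 0.27). The groups did not overlap in either gene. CCDC114, a core docking subunit, had 1 count in each group, and CCDC151, its partner, had 7 counts in treated and 3 in vehicle libraries, so both lay at the edge of detection.

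The inner dynein arm genes were higher in sum, mostly through 2 intermediate chains (37.6 CPM in treated and 2.98 CPM in vehicle libraries, a ratio of 12.6). WDR63 (chromosome 1, 84999147 to 85133138, GRCh38, now named DNAI3) had 64, 85, 33 and 49 counts in the treated libraries and 0, 2, 1 and 0 in the vehicle libraries. That is 11.4, 14.5, 11.4 and 15.8 CPM in treated libraries and at most 0.518 CPM in a vehicle library, a ratio of 64.6 with an interval from 21.8 to 316. WDR78 (now DNAI4), a second intermediate chain, measured 19.0, 13.5, 16.2 and 19.0 CPM in treated libraries, against 0.418, 1.55, 0.674 and 2.76 CPM in vehicle libraries, a log2 fold change of 3.53 (SE 0.30). Every treated library was far above every vehicle library in both genes. The inner arm heavy chains were rarer. DNAH7 had 4, 32, 8 and 13 counts in treated libraries and 0, 2, 0 and 0 in vehicle libraries, so that 1 treated library held most of its counts and the ratio of 23.9 has an interval from 6.32 to 202. DNAH1 had 17, 10, 8 and 7 counts in treated libraries and 1, 5, 2 and 4 in vehicle libraries, a ratio of 2.94 (1.52 to 6.13). Those 2 inner arm heavy chains were higher without overlap between groups in CPM, where 18.2% of all genes with a row were. In DNAH7 the closest libraries held 4 counts in treated replicate 1 (0.710 CPM) and 2 in vehicle replicate 2 (0.518 CPM). The other inner arm heavy chains overlapped, DNAH6 only through treated replicate 4, which held no count. DNAH6 had 16 counts in treated and 2 in vehicle libraries, DNAH10 had 14 and 7 (of the 14, 12 came from treated replicate 1, and the gene shares 975 exon bases with CCDC92 on the opposite strand, which rose 2.77-fold), and DNAH2 had 3 and 0, which is within the floor of 3 counts over the group. The 7 heavy chain genes other than DNAH14 together had 171 counts in treated and 31 in vehicle libraries (9.83 ± 1.74 CPM against 1.93 ± 1.02 CPM, SD, n = 4 each).

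DNAH14, a dynein heavy chain whose place in the axoneme is not well defined, had the most counts of the members and was not called. It measured 70.5, 52.0, 53.0 and 55.7 CPM in treated libraries, against 74.0, 54.6, 55.5 and 49.7 CPM in vehicle libraries. The groups overlapped fully, and the log2 fold change was 0.02 (SE 0.11). With 4.2 CPM per kilobase of its longest coding transcript in treated cells and 4.25 in vehicle cells, its level per length was close to that of WDR63 (4.42) and WDR78 (4.39) in treated cells.

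**Figure D2:**
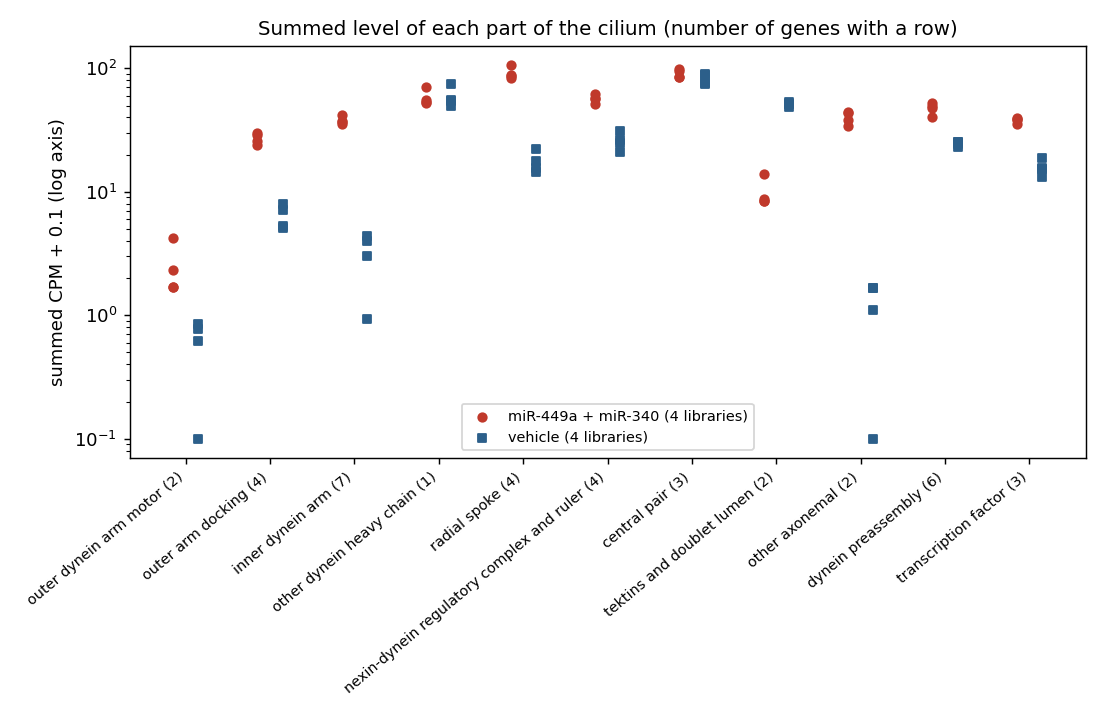
Summed level of the genes of each role in each library, as CPM + 0.1 on a log axis, with treated libraries (red circles) left of vehicle libraries (blue squares) and the number of genes with a row in brackets. Inner dynein arm genes averaged 37.6 CPM in treated and 2.98 CPM in vehicle libraries, while the central pair genes averaged 91.2 and 82.0 CPM and the tektin and lumen genes 9.80 and 51.2 CPM. The tektin and lumen sum is nearly all MNS1, which held 176 of 178 counts in treated and 756 of 757 in vehicle libraries.

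Radial spoke genes were higher in treated cells, with all 4 members free of overlap between groups, where 18.2% of all genes with a row were higher in that way. RSPH4A (chromosome 6, 116616479 to 116632985, GRCh38), a spoke head gene, measured 51.8, 53.7, 68.2 and 53.4 CPM in treated libraries, against 6.69, 10.4, 8.08 and 6.28 CPM in vehicle libraries, a log2 fold change of 2.82 (SE 0.15). Per kilobase of transcript it stood at 20.1 CPM in treated cells, second among the members only to SPAG16 (23.1 CPM per kilobase). RSPH3, a spoke stalk gene, measured 27.9, 31.9, 36.8 and 29 CPM in treated libraries, against 10.9, 11.9, 6.96 and 8.04 CPM in vehicle libraries, a log2 fold change of 1.75 (SE 0.17). The head genes RSPH1 and RSPH9 were far rarer than RSPH4A. RSPH9 had 8, 9, 4 and 5 counts in the treated libraries and none in any vehicle library, which is at least 7.27-fold higher when the vehicle group is set to its floor of 3 counts. RSPH1 had 12, 10, 2 and 8 counts in treated libraries and 0, 0, 2 and 0 in vehicle libraries, a ratio of 13.4 with a lower bound of 3.42. RSPH9 shares 604 bases of annotated exon with MRPS18A on the opposite strand, which was not called (log2 fold change -0.18, adjusted p = 0.236).

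The nexin-dynein regulatory complex links neighbouring doublets, and CCDC39 and CCDC40 form the ruler that sets its spacing. CCDC40 measured 20.4, 23.4, 26.5 and 20.6 CPM in treated libraries, against 5.44, 2.85, 4.94 and 2.76 CPM in vehicle libraries, a log2 fold change of 2.53 (SE 0.22). CCDC65 (DRC2) measured 3.20, 3.24, 5.51 and 3.22 CPM in treated libraries and at most 0.777 CPM in a vehicle library, with 63 counts against 5. Its partner DRC1 was sparser, with 12 counts in treated and 1 in vehicle libraries. GAS8 (DRC4), which was already abundant, measured 27.3, 29.7, 29.6 and 31.9 CPM in treated libraries, against 25.5, 22.5, 19.5 and 18.1 CPM in vehicle libraries, a log2 fold change of 0.48 (SE 0.14). The 4 genes with a row were higher without overlap between groups in CPM, where 18.2% of all genes with a row were. In DRC1 this rests on library size, with 1 count in treated replicate 3 (0.344 CPM) and 1 count in vehicle replicate 2 (0.259 CPM). GAS8 shares 126 exon bases with DBNDD1 on the opposite strand, which fell 2.60-fold (adjusted p = 1.85e-09).

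Central pair genes moved in both directions. SPAG16 measured 57.7, 57.0, 43.7 and 50.5 CPM in treated libraries, against 33.0, 30.6, 31.2 and 35.7 CPM in vehicle libraries, a log2 fold change of 0.70 (SE 0.11). SPAG17, its partner in the projections of the central pair, measured 28.2, 25.4, 29.6 and 26.4 CPM in treated libraries, against 41.4, 36.8, 39.3 and 48.5 CPM in vehicle libraries, a log2 fold change of -0.60 (SE 0.12). The groups did not overlap in either gene, and the changes had opposite signs. SPAG17 shares 1759 exon bases with WDR3, a ribosome biogenesis gene on the opposite strand, which fell 2.21-fold (66.8 ± 6.26 CPM in treated and 149 ± 6.0 CPM in vehicle cells, SD, n = 4 each, adjusted p = 2.79e-19). The part of WDR3 reads in the SPAG17 value was not tested. SPEF2 measured 13.5, 12.3, 12.1 and 8.37 CPM in treated libraries, against 13, 6.73, 5.61 and 6.28 CPM in vehicle libraries, and its groups overlapped through vehicle replicate 1. Its log2 fold change was 0.66 (SE 0.23), and the call was lost without vehicle replicate 3 (0.51) or treated replicate 1 (0.57).

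MNS1, which encodes a protein inside the doublet microtubules, had the largest fall. MNS1 (chromosome 15, 56421544 to 56465137, GRCh38) measured 13.7, 8.19, 8.61 and 8.37 CPM in treated libraries, against 48.1, 51.5, 51.2 and 53.8 CPM in vehicle libraries, a log2 fold change of -2.36 (SE 0.15). Its level per length was 4.80 CPM per kilobase in treated cells and 25.3 in vehicle cells, the highest of the members in vehicle cells. TEX9, which shares 463 exon bases with it on the opposite strand, rose 2.48-fold (adjusted p = 1.6e-09), so the overlapping pair moved in opposite directions. The tektin gene TEKT2 had 2 counts in treated and 1 in vehicle libraries.

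CFAP57 and CCDC113 were nearly silent in vehicle cells. CFAP57 (chromosome 1, 43172149 to 43254358, GRCh38), which bears on inner arm assembly, had 57, 79, 44 and 54 counts in treated libraries and 0, 2, 2 and 1 in vehicle libraries. In CPM that was 10.1, 13.5, 15.1 and 17.4 in treated libraries and at most 0.518 in a vehicle library, a log2 fold change of 5.21 (SE 0.41). CCDC113 (chromosome 16, 58231157 to 58283836, GRCh38, now CFAP263) had 133, 182, 83 and 65 counts in treated libraries and 0, 4, 5 and 3 in vehicle libraries, a log2 fold change of 4.96 (SE 0.29). No treated library came near a vehicle library in either gene. CFAP57 shares 668 exon bases with EBNA1BP2 on the opposite strand, an abundant gene that was not called (153 ± 11.1 CPM in treated and 148 ± 18 CPM in vehicle cells, SD, n = 4 each, adjusted p = 0.627).

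Of the dynein preassembly factors, 4 of 6 were higher without overlap (18.2% of all genes with a row were), DNAAF2 was not called and DNAAF3 was called lower. DNAAF1 had 40, 52, 28 and 29 counts in treated libraries and 1, 0, 1 and 1 in vehicle libraries, a ratio of 41.7 (14.0 to 204). LRRC6 measured 14.4, 18.8, 20 and 19.6 CPM in treated libraries, against 2.93, 4.66, 3.37 and 3.52 CPM in vehicle libraries, a log2 fold change of 2.28 (SE 0.23). ZMYND10, which acts with LRRC6, had 28 counts in treated and 5 in vehicle libraries (ratio 4.70, 1.79 to 15.6), and DYX1C1 (DNAAF4) had 25 and 1 (ratio 21, 3.43 to 861). None of these 4 overlapped between groups in CPM. In ZMYND10 this rests on library size, with 2 counts in treated replicate 3 (0.689 CPM) against 3 in vehicle replicate 3 (0.674 CPM). In DYX1C1 the closest libraries held 2 counts in treated replicate 3 and 1 in vehicle replicate 3. DNAAF1 shares 450 exon bases with TAF1C on the opposite strand, which was not called (adjusted p = 0.127). DNAAF2 measured 11.2, 11.8, 14.5 and 13.2 CPM in treated libraries, against 13, 13.5, 12.1 and 8.79 CPM in vehicle libraries, with a log2 fold change of 0.08 (SE 0.19) that was not called. DNAAF3 measured 4.79, 4.61, 4.48 and 5.79 CPM in treated libraries, against 8.79, 5.44, 8.76 and 10.6 CPM in vehicle libraries, a log2 fold change of -0.78 (SE 0.26) with overlapping groups. The DNAAF3 call was lost without vehicle replicate 4 (-0.63, adjusted p = 0.0549).

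**Figure D3:**
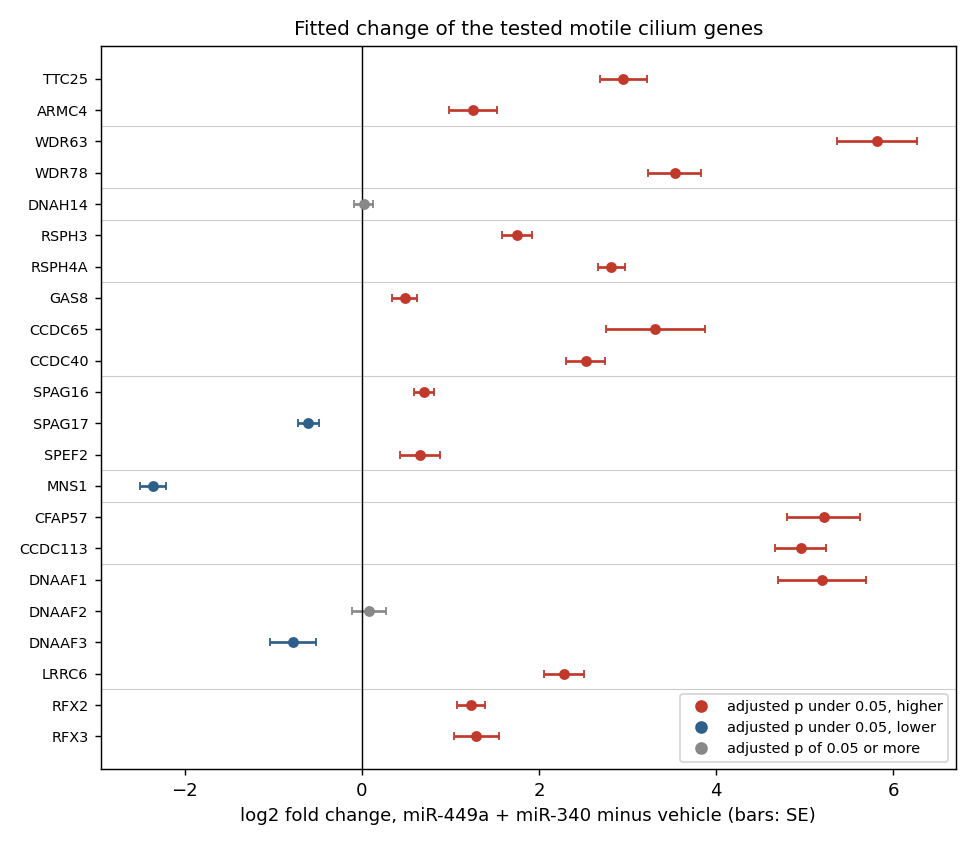
Fitted log2 fold change, treated minus vehicle, of the 22 tested genes, in the role order of the plot by library, with bars for the SE. Red points were called higher, blue points lower and grey points were not called at an adjusted p of 0.05. WDR63, DNAAF1, CFAP57 and CCDC113 lie near 5 or above, and MNS1 lies at -2.36.

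The 16 genes under the count minimum had 316 counts over the treated libraries and 47 over the vehicle libraries. Their summed level was 16.7, 20.5, 15.5 and 18.3 CPM in treated libraries, against 0.837, 3.62, 4.94 and 2.26 CPM in vehicle libraries. Every treated library lay above every vehicle library for that sum. With no filter on low counts, 8 of the 16 were called higher (DNAH1, DNAH5, DNAH6, DNAH7, DYX1C1, RSPH1, RSPH9 and ZMYND10) and 0 lower at an adjusted p under 0.05, where 20.5% of all 22808 genes were called higher. That share includes genes that passed the count minimum, and the share among genes under it was not counted. FOXJ1 (12 counts in treated and 2 in vehicle libraries) and DRC1 (12 and 1) were not called there. Nor was a difference detected at these counts in DNAH9, CCDC114, CCDC151, DNAH2, DNAH10 or TEKT2.

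What the members share beyond the list was looked for in their promoters, because RFX factors bind the X-box. RefSeq windows from 250 bases before to 50 after each start (GRCh38.p14) were matched for 34 of the 47 genes, 27 of them with a row in the count table. The half-site searched was GTTGCC on both strands, and 20 of the 34 genes held it (58.8%), where 14.6% of all 27305 genes with a window did. Among the 27 with a row, 14 held it (51.9%). The X-box with both half-sites, GTTNCCNNGGNAAC, which can contain the shorter word, was in 2 genes, DNAH1 and SPAG16, and in 0.593% of all genes. The forkhead word GTAAACA was in 3 of the 34 (8.82%) and in 4.19% of all genes. The half-site was in 6 of 11 genes called higher that had a window, in 1 of 2 called lower, in 0 of 2 not called (DNAAF2 and DNAH14) and in 7 of 12 under the count minimum. A match is only a description of letters in a window.

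**Figure D4:**
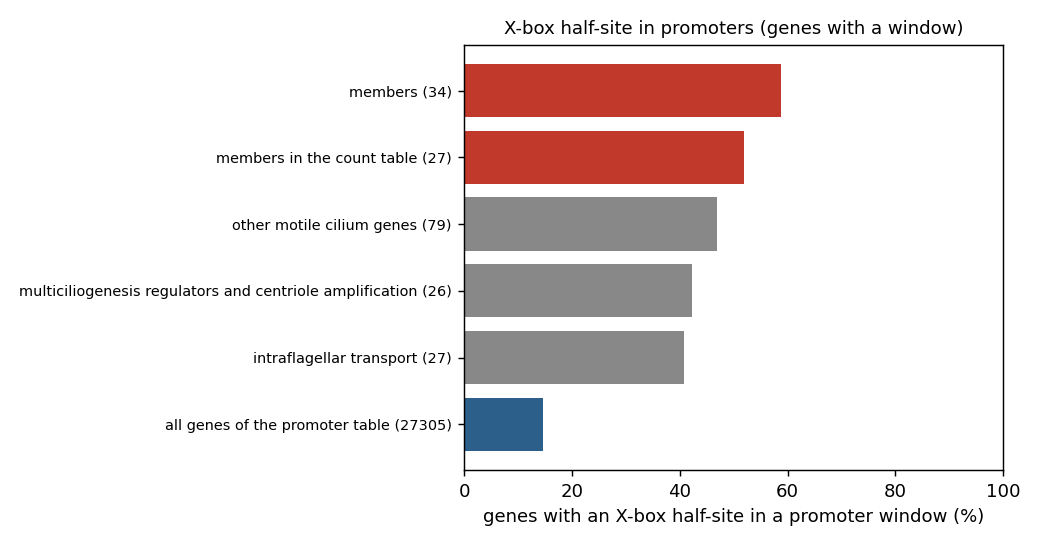
Share of genes whose promoter window holds the X-box half-site, in percent, for the members (red), other ciliary lists limited to genes with a row in the count table (grey) and all genes of the promoter table (blue), with the number of genes that have a window in brackets. The members stand at 58.8% and 51.9%, the other ciliary lists between 40.7% and 46.8%, and all genes at 14.6%.

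Windows are printed for 2 strongly higher genes (WDR63 and CCDC113), the most abundant spoke gene (RSPH4A), the central pair gene with a full X-box (SPAG16) and the gene with the largest fall (MNS1), all from RefSeq, GRCh38.p14. Capitals mark the X-box, its half-site and the forkhead word.
WDR63 promoter (chr1:85062077-85062376, plus strand): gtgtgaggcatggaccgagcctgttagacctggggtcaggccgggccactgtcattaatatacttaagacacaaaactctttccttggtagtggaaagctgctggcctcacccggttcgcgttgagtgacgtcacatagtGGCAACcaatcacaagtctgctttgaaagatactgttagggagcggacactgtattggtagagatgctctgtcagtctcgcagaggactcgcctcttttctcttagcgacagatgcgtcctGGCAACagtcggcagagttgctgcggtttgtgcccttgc
CCDC113 promoter (chr16:58249686-58249985, plus strand): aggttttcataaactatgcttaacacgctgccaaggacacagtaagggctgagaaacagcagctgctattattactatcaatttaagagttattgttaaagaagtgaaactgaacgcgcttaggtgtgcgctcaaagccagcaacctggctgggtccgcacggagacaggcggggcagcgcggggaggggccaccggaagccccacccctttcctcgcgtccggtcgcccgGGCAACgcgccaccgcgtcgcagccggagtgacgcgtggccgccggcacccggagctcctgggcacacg
RSPH4A promoter (chr6:116616229-116616528, plus strand): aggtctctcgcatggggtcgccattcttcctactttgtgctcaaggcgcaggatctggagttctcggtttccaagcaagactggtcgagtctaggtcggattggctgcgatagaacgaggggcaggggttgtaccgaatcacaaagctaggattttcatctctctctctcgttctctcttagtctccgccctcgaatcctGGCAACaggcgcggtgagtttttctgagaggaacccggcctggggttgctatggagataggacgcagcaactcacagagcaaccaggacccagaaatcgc
SPAG16 promoter (chr2:213284214-213284513, plus strand): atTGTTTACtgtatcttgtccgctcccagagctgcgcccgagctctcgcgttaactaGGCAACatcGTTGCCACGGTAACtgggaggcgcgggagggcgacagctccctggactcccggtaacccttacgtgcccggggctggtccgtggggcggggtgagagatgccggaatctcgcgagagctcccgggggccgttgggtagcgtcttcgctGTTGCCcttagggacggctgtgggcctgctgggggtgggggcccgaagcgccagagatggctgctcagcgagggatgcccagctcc
MNS1 promoter (chr15:56465088-56465387, minus strand): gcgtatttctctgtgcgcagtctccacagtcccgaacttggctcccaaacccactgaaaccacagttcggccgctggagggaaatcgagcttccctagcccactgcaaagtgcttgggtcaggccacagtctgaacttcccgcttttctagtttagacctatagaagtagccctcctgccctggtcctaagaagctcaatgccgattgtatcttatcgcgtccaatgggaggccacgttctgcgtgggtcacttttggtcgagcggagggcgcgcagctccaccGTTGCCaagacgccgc
WDR63 held the half-site 2 times, before and after the start, and CCDC113 and RSPH4A held it once before the start. In MNS1 it lay after the start. CFAP57, ARMC4, CCDC40, RSPH3 and RFX3, also called higher, held no half-site in their windows. The RefSeq starts of WDR63 and CCDC113 lie inside the longer gene spans given above from GENCODE 29.

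The words that pair with the microRNA seeds were counted in 3′ UTRs, taking the longest one that GENCODE 29 gives a gene and leaving out those under 50 bases. CACTGCC, the word for miR-449a, was in 2 of the 37 members with a row and such a UTR (5.41%), RFX3 and GAS8, and in 17.5% of 13635 genes of the table. CTTTATA, the word for miR-340-5p, was in 6 of 37 (16.2%), ARMC4, WDR78, RSPH3, DRC1, GAS8 and SPEF2, and in 18.2% of genes. Member UTRs were shorter, with a median of 567 bases against 1338 bases. Of the 7 genes that hold a word of either microRNA, 6 were tested and called higher, where 17 of all 22 tested members (77.3%) and 33.4% of all tested genes were, so nothing is read from that count. DRC1 was under the count minimum, and MNS1, SPAG17 and DNAAF3, the members called lower, held neither word. The sites of the miR-449a word are printed because they stand in genes that were higher, with the word in capitals and flanks from GENCODE 29 transcripts (GRCh38).
RFX3 (chr9:3220534-3220540, minus strand): tcccaaatattCACTGCCatctaagtaag
GAS8 (chr16:90044409-90044415, plus strand): accagtctgccCACTGCCtaaatgatgcc
GAS8 (chr16:90044709-90044715, plus strand): tgggcctcagaCACTGCCctgccacctgt
GAS8 (chr16:90044793-90044799, plus strand): tctagggacacCACTGCCctgtctttagg
The RFX3 site is followed by an A, which makes the longer word CACTGCCA, found in 5.82% of genes. None of the 3 GAS8 sites makes it.

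Other ciliary genes were taken from lists written from general knowledge. Of 123 other motile cilium genes, 98 have a row and 47 were tested, of which 37 rose (78.7%), 3 fell (6.38%) and 7 were not called (edgeR, adjusted p under 0.05), beside 33.4% higher and 34.0% lower over all tested genes. Here too, a gene that passed the count minimum only through the treated libraries was bound to differ. LRGUK (65 counts in treated and 0 in vehicle libraries) and MORN3 (77 and 4) are examples, so these counts only describe the list. The median log2 fold change of the 47 genes was 1.18, also with LRGUK at its bound of at least 18.2-fold. The genes with the smallest adjusted p were DPCD, C9orf116, CFAP36, MORN2, STK36 and CCDC181. DPCD, deleted in a mouse model of primary ciliary dyskinesia, rose 4.38-fold to 146 ± 6.81 CPM in treated cells, against 33.3 ± 3.75 CPM in vehicle cells (SD, n = 4 each, edgeR adjusted p = 4.55e-29). C9orf116, a doublet lumen gene, rose 6.78-fold to 48.8 ± 10.5 CPM, against 7.30 ± 1.64 CPM in vehicle cells (adjusted p = 8.47e-22). STK36, a kinase needed for the central pair, rose 2.65-fold, and CCDC181 rose 4.02-fold. Genes of this list that fell were HSPA4L, RIBC2 and C21orf59, at 1.99-fold, 2.88-fold and 1.51-fold.

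Intraflagellar transport carries parts into both motile and primary cilia. Of 28 tested genes of this transport, 19 rose (67.9%), 4 fell (14.3%) and 5 were not called, beside 33.4% and 34.0% over all tested genes, and the median was 0.99. The motor genes KIF3B and KIF3A rose 3.36-fold and 3.59-fold, and DYNC2LI1, a light intermediate chain of the return motor, rose 6.38-fold to 100 ± 7.19 CPM in treated cells, against 15.7 ± 0.455 CPM in vehicle cells (SD, n = 4 each, edgeR adjusted p = 5.7e-30). IFT81 rose 3.26-fold, WDR60 2.64-fold and WDR19 4.25-fold. TTC21B fell 2.07-fold and KIFAP3, a partner of the KIF3 motors, 1.62-fold. The difference between the lists was not tested.

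Of 22 tested regulators of multiciliogenesis and centriole amplification, 7 rose (31.8%), 8 fell (36.4%) and 7 were not called, and the median was -0.10. These shares are near the 33.4% and 34.0% over all tested genes, so the counts are no result about the regulators. The genes with the smallest adjusted p were GMNN, STIL, PLK4, CEP152, SASS6 and E2F4, and all of them fell. GMNN, which encodes geminin, fell 11.4-fold (7.26 ± 0.920 CPM in treated and 82.5 ± 6.38 CPM in vehicle cells, SD, n = 4 each, edgeR adjusted p = 9.84e-32). STIL fell 4.26-fold, PLK4 6.95-fold, CEP152 4.23-fold, SASS6 2.05-fold and E2F4, a partner of the multiciliogenesis regulators, 2.22-fold. These genes also act in dividing cells. CCNO, a cyclin of multiciliated cells, rose 3.46-fold to 4.91 ± 1.57 CPM in treated cells, against 1.48 ± 0.749 CPM in vehicle cells (adjusted p = 0.000101). CCP110, a centriole cap gene reported as a miR-34/449 target in multiciliated cells, rose 1.37-fold (99.5 ± 8.57 CPM in treated and 72.1 ± 7.0 CPM in vehicle cells, adjusted p = 8.09e-06). E2F5 was not called (log2 fold change -0.06, SE 0.29). The regulator MCIDAS had 8 counts in treated and 4 in vehicle libraries, and MYB had 16 and 39, both under the count minimum. GMNC, DEUP1 and CDC20B have no row in the table.

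**Figure D5:**
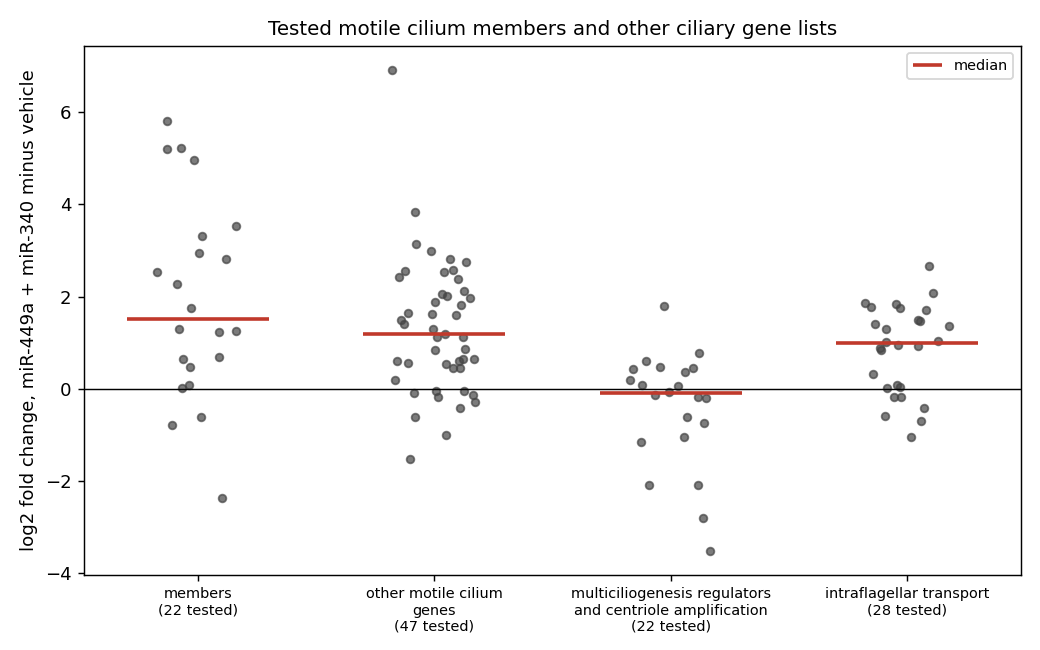
Fitted log2 fold change, treated minus vehicle, of each tested gene of 4 lists, with the median as a red line. Medians were 1.52 for the members, 1.18 for other motile cilium genes, -0.10 for multiciliogenesis regulators and 0.99 for intraflagellar transport; genes with few or no vehicle counts sit high on a fitted scale that is no bound.

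Markers of other cell types were read beside these values. Of 7 epithelial markers, 5 have a row, and they summed to 70.5 to 81.6 CPM in treated libraries and 38.3 to 49.2 CPM in vehicle libraries, mostly through KRT18 (67.3 ± 4.90 CPM in treated and 39.7 ± 5.06 CPM in vehicle cells, SD, n = 4 each). The 2 tested, KRT18 and KRT8, were called higher (edgeR adjusted p = 4.04e-09 and 0.0168), where 33.4% of all tested genes were. EPCAM had 21 counts in treated and 1 in vehicle libraries, KRT7 had 11 and 2, and CDH1 had 4 and 0. The part of epithelial genes in the ciliary values was not tested. None of the 5 secretory and basal airway markers (SCGB1A1, SCGB3A1, MUC5AC, MUC5B and TP63) has a row. Of 4 leukocyte markers, 3 have a row, which summed to 1.93 to 2.73 CPM in treated and 1.26 to 2.76 CPM in vehicle libraries, and the 2 of 4 endothelial markers with a row stayed at or under 1.29 CPM in every library. Of the skeletal muscle markers, which define the lineage of the line, 4 of 5 have a row. All 3 tested were called lower, where 34.0% of all tested genes were. The 4 summed to 165 to 187 CPM in treated and 302 to 358 CPM in vehicle libraries. MYOD1 was at 108 ± 3.72 CPM in treated and 204 ± 21.7 CPM in vehicle cells (SD, n = 4 each, edgeR adjusted p = 4.33e-17). MYOG had 13 counts in treated and 155 in vehicle libraries and fell 13.8-fold (adjusted p = 8.26e-14), and DES fell 1.58-fold (adjusted p = 2.05e-09). The part of these changes in the ciliary values was not tested.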

How the data were processed

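RNA of 8 RD18 libraries was measured, 4 treated and 4 vehicle, with a stranded mRNA kit per the labels. The authors deposited 1 table of raw read counts per gene symbol, with 22808 symbols. Per the submitters' processing notes the tools were HTSeq 0.5.3p3, DESeq2, TopHat2 2.0.13 and SAMtools 0.1.19.24, and the build was GRCh38. The sources used here give neither their roles, nor an annotation, nor whether counting used strand, so overlapping genes on opposite strands may share reads. Columns were matched through the library code in each sample's description.

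Counts were filtered with filterByExpr (minimum count 10, minimum total 15), TMM-scaled, and compared between groups by the two-sided quasi-likelihood test of edgeR 4.0.16 (R 4.3.3, robust glmQLFit, no covariate) over 12366 genes, with Benjamini-Hochberg adjustment at 0.05. The SE is the size of the log2 fold change over the square root of F. CPM use effective library sizes. With few counts, the ratio of pooled counts has an exact 95% interval, and a group at 0 has a floor of 3 counts. The test was tried on simulated data. Replicate pairs differed by 2.21 to 5.89 chi-square per gene where sampling gives about 1, so none was a duplicate.

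The members and lists were chosen with earlier results of these data known. Named members are those called without overlap, up to 16, with FOXJ1, RFX2 and RFX3 and the rest in brief. Other lists give up to 6 genes with the smallest adjusted p, and 9 regulators. Genes that overlap members, and those that fell or were few, were named after their values were seen. Symbols were matched to GENCODE 29 and RefSeq GRCh38.p14. Alternatives were DESeq2 1.42.0, limma-voom (limma 3.58.1), other scalings, filters and thresholds, a replicate block and leaving out each library.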

Additional observations from a re-analysis of the deposited data

Results flagged for a closer look

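In 6 of 46 sets of 4 libraries checked (each tested member and the summed level, by group), 1 library stood apart by Dixon's criterion, which flags about 1 set in 20 by chance. The share is the gap to the nearest library over the whole range. In treated libraries, replicate 3 was highest for CCDC65 (share 0.980, 5.51 CPM), for RSPH4A (0.884, 68.2 CPM) and for the summed level of all members (0.878, 513 CPM). Treated replicate 1 was highest for MNS1 (0.924, 13.7 CPM). In vehicle libraries, replicate 4 was highest for ARMC4 (0.899, 5.78 CPM) and replicate 1 for SPEF2 (0.848, 13 CPM).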

How the results depend on the processing

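The count of 17 members called higher ran from 14 to 25 over all alternatives, with 25 when no filter on low counts was used and 14 when at least 2-fold was required, and was 17 with library size alone, upper-quartile scaling, DESeq2 and limma-voom. Leaving out each library in turn gave 17 to 19 higher and 2 to 3 lower. The count of 3 lower became 1 with the 2-fold requirement. The summed level ratio of 1.75 became 1.93 with library size alone and 1.94 without DNAH14, and ran from 1.73 to 1.78 when a library was left out. Of 330 single values of the 22 tested members, 321 kept direction and call, 3 lost the call (SPEF2 and DNAAF3, given with their values) and 6 changed sign, all in genes that were not called. The log2 fold change of DNAH14 (0.02) became -0.015 with the replicate block and ran from -0.103 to 0.123 when a library was left out, below 0 without vehicle replicate 2, 3 or 4 or treated replicate 1. That of DNAAF2 (0.08) ran from -0.0382 (without vehicle replicate 4) to 0.151. That of E2F5 (-0.06) became 0.0772 with library size alone and ran from -0.171 to 0.0091, above 0 without vehicle replicate 3 or treated replicate 1. The cause was not tested.

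The labels do not say whether replicate numbers pair the libraries, and the values do not settle it. Deviations of same-numbered libraries correlated only weakly, at 0.01 to 0.06, but 7 of 8 libraries correlated best with their own number. With the number as a block, 17 members were called higher and 3 lower, as without it. Depth limits the 16 genes under the count minimum.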
